A study of Mus musculus with 18 samples.

Results

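The genes described here are *Ucp1*, *Cidea*, *Cox8b*, *Cox7a1*, *Elovl3*, *Dio2*, *Ppargc1a*, *Cpt1b*, *Otop1* and *Prdm16*, a panel of heat-producing fat genes chosen by symbol. All 10 were among the 55453 gene symbols of each count table, and all 10 passed the filter on low counts in each experiment. The samples were whole mouse aortae, profiled by bulk RNA-seq of polyadenylated RNA, from 2 lines in which a CArG box upstream of *Tspan2* was edited. The question was which genes differ in the aorta when this binding site of serum response factor is lost. In the HDR experiment, 5 wild-type aortae were set against 5 homozygous *sg/sg* aortae, which carry a substitution of several bases made with Cas9 and a repair template by homology-directed repair (HDR). These mice were 12 weeks old, and the labels give C57BL/6 as their strain. The PE2 experiment used 4 wild-type and 4 homozygous *peg/peg* aortae, which carry a single-base substitution made with prime editor 2 (PE2). Those mice were 8 weeks old, of the background FVB/N/B6(Cg)-Tyrc-2J/J. Each HDR group held 3 females and 2 males, the PE2 wild type 3 females and 1 male, and the *peg/peg* group 4 females. The labels name no drug and no cold exposure for any group. The study's methods describe 1 aorta per RNA sample, freed of the tissue around the adventitia, and the same FVB and B6 parent strains for both lines, which the HDR strain label does not show. Per the same methods, founders of both lines were then bred to C57BL/6J mice before the intercrosses.

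The aorta of a mouse lies in perivascular fat, which around the thoracic aorta resembles brown fat. Brown adipocytes burn fatty acids and let protons leak back across the inner mitochondrial membrane through UCP1, so that the energy leaves as heat. Noradrenaline drives this programme through beta-adrenergic receptors and cyclic AMP, while PRDM16 and PGC-1alpha (the product of *Ppargc1a*) act on transcription. Fat that stays on the vessel at dissection adds its RNA to a bulk library. In such libraries fewer brown adipocytes and less RNA per brown adipocyte cannot be told apart.

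The HDR libraries held 17290992 to 24880385 counts each and the deeper PE2 libraries 38820265 to 44895615. Values below are CPM, the counts scaled to library size with TMM factors, and levels are compared between genes only per kilobase of exon. *Tspan2*, the edited gene, was at 112 to 265 CPM in the 5 HDR wild-type and at 16.0 to 36.6 CPM in the 5 *sg/sg* libraries. It was at 186 to 284 CPM in the PE2 wild-type and at 11.9 to 25.5 CPM in the *peg/peg* libraries, so neither pair of groups overlapped. The library labelled *peg/peg* replicate 3 went against its tissue label. Its *Eln*, the elastin of the arterial wall, was at 622 CPM against 11617 to 34850 CPM in the other 7 PE2 libraries. The HDR libraries held 430 to 2915 CPM of *Eln*, so 622 CPM was low only within the PE2 experiment. Its *Sost*, expressed in aortic smooth muscle, was at 0 against 302 to 702 CPM in the other PE2 and 108 to 670 CPM in the HDR libraries. The uroplakin gene *Upk1a* was at 229 CPM in *peg/peg* replicate 3 against 0.483 to 13.7 CPM in the other PE2 libraries, and *Hoxa13*, a gene of the caudal body, was at 55.7 against at most 0.331 CPM. Among the HDR libraries, WT_3 had the highest *Hoxa13* (9.36 CPM, others at most 1.07, in Mut_4) and the highest *Des* (945 CPM, others at most 111). *Upk1a* was highest in Mut_4 (16.6 CPM) and then WT_3 (14.1 CPM), and so was *Upk3a*, another uroplakin gene (14.0 and 12.3 CPM). Mut_4 also had the lowest *Eln* (430 CPM) and *Sost* (108 CPM) of the HDR libraries. These genes were picked after their values had been seen. Results below are given with all libraries. The members' PE2 estimates from the edgeR fit by genotype alone are also given without the library labelled *peg/peg* replicate 3. For the HDR test of the members, results without WT_3 and without Mut_4 are summarized where that test is described. The HDR spreads, correlations and marker lists include both libraries. In neither experiment did all mutant libraries lie above or below all wild-type libraries for any member (0 of 10), against 0.122% of genes above and 0.195% below among HDR libraries, 1.43% and 1.1% among PE2 libraries, and 2.73% and 2.49% among PE2 libraries without *peg/peg* replicate 3.

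Promoter sequences are shown for *Ucp1*, *Dio2* and *Ppargc1a*, the members in which a cyclic AMP response element or its shorter core was found, because cyclic AMP carries the cold signal to these genes. RefSeq sequence (GRCm38.p6) was given for 7 of the 10 members. Each line holds the 250 bases before the RefSeq start, 5′ to 3′ on the gene's strand. Capitals mark matches on either strand to the full response element (TGACGTCA), its shorter core (TGACG, or CGTCA where it lies on the other strand), a nuclear receptor core site (AGGTCA) or a TATA box (TATAAA).
Ucp1, chr8:83290098-83290347, plus strand: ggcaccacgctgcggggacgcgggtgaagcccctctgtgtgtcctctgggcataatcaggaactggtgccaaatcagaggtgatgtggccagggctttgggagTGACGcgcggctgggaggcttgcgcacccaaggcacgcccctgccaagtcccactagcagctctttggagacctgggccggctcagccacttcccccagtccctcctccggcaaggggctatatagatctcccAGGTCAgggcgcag
Dio2, chr12:90739039-90739288, minus strand: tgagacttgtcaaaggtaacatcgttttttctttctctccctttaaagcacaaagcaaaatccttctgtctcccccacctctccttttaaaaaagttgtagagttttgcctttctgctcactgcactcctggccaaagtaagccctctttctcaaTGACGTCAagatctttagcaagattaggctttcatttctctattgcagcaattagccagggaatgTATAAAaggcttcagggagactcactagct
Ppargc1a, chr5:51567726-51567975, minus strand: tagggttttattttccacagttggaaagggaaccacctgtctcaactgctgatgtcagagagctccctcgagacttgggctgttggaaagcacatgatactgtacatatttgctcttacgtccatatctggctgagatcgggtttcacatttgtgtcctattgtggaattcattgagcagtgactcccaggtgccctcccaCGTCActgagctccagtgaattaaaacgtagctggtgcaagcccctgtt
The full response element was found in *Dio2* alone of the 7, at positions -95 to -88 from the start, and in 1.88% of 27025 promoters of the same 300-base window. Its shorter core, which the full element contains, stood at -147 to -143 in *Ucp1* and at -49 to -45 in *Ppargc1a*, and was present in 21% of promoters. The nuclear receptor core site stood at -14 to -9 in *Ucp1* (16% of promoters) and the TATA box at -30 to -25 in *Dio2* (14.2%). *Cox8b* also held a TATA box, just after its start. The estrogen-related receptor element (0.407% of promoters), the direct repeat 1 of PPAR and RXR (0.0444%) and a CArG box (1.57%) were found in 0 of the 7. These are letter matches in 1 window and show no binding. The 3 members with that core were not alike in these libraries: over the 10 HDR libraries *Ucp1* changed 10.2-fold, *Dio2* 5.25-fold and *Ppargc1a* 2.13-fold.

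*Ucp1*, the proton channel of brown fat, had the highest median level per kilobase in both experiments, with *Cox8b* too close to rank apart from it in the HDR libraries. The 5 HDR wild-type libraries WT_2 to WT_6 held 338, 145, 248.6, 501 and 638 CPM of *Ucp1*, and the *sg/sg* libraries Mut_2 to Mut_6 held 225, 204, 889, 122 and 87.4 CPM. The highest and the lowest value both lay in the mutant group, so the groups overlapped over the whole wild-type range. The edgeR log2 fold change was -0.29 ± 0.60 (SE) with an adjusted p of 1.00. In PE2 wild-type replicates 1 to 4, *Ucp1* was at 1181, 1242, 339 and 1641 CPM, and in *peg/peg* replicates 1 to 4 at 163, 971, 1.36 and 796 CPM. Wild-type replicate 3 lay below 2 of the *peg/peg* libraries, and the library labelled *peg/peg* replicate 3 was close to devoid of the transcript. The log2 fold change was -1.19 ± 1.29 (adjusted p = 0.873), and -0.79 ± 0.66 without that library (adjusted p = 0.989).

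**Figure D1:**
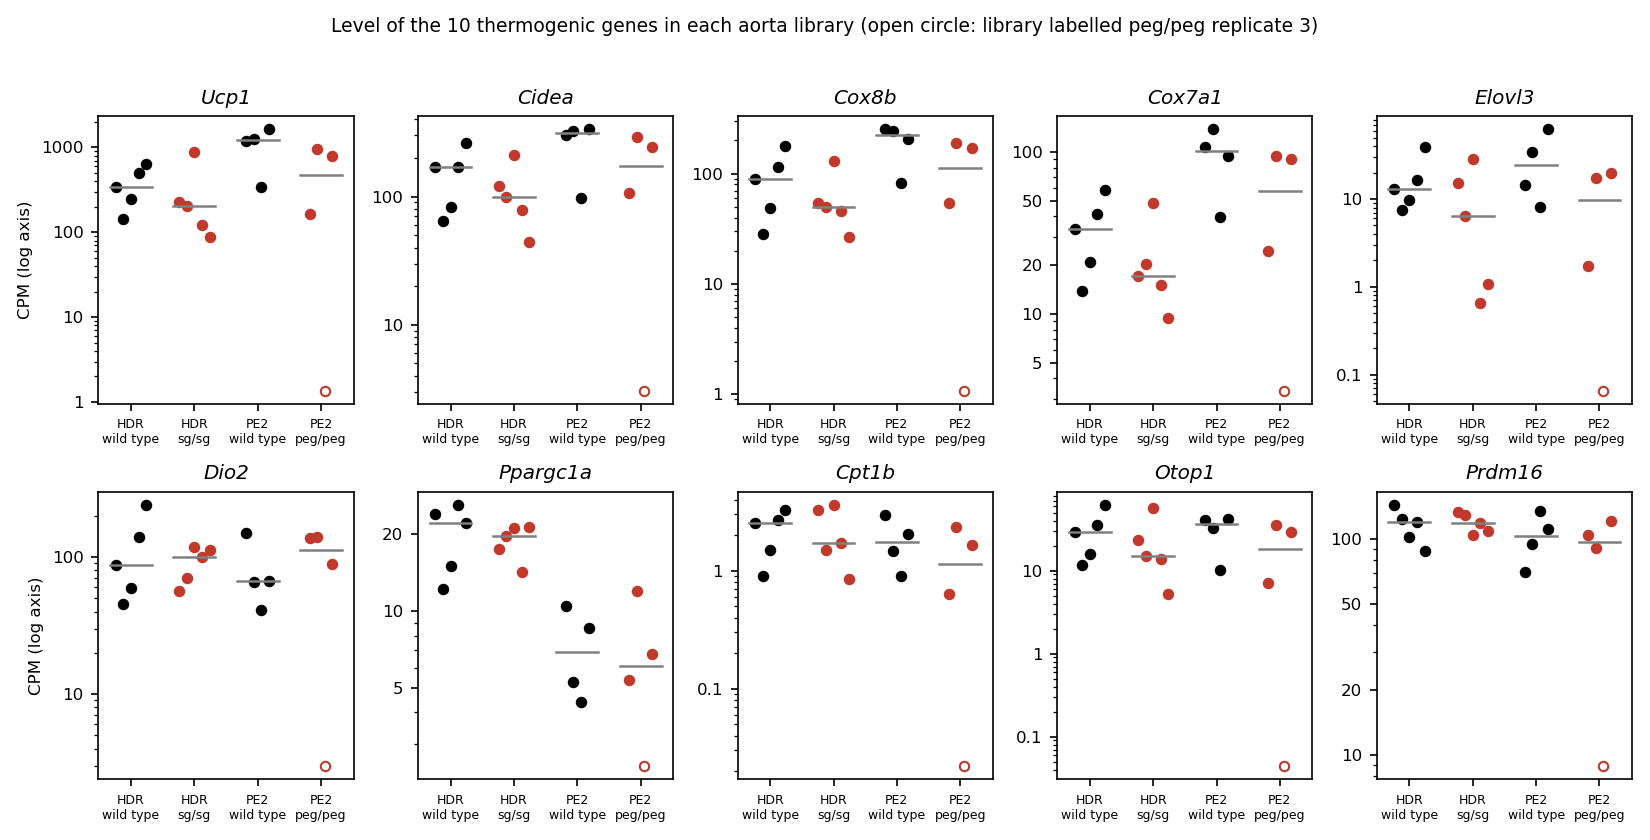
Level of each of the 10 genes in every library (CPM, log axis), by group, 1 point per library and a grey line at the group median. The open circle is the library labelled peg/peg replicate 3, the lowest of the 8 PE2 libraries for all 10 genes; the filled points of mutant and wild-type groups overlap in every panel.

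*Cidea*, a lipid droplet protein and a classical brown fat marker, ran in parallel. It was at 169, 64.0, 83.5, 169.6 and 261 CPM in the HDR wild-type libraries and at 121, 99.8, 209, 78.0 and 44.3 CPM in the *sg/sg* libraries. In the PE2 experiment the wild-type libraries held 304.8, 326, 97.2 and 336 CPM of *Cidea*, and the *peg/peg* libraries 106, 292, 3.05 and 242 CPM. *Cidea* was lowest where *Ucp1* was lowest among the HDR libraries (Mut_6), and mutant and wild-type values overlapped in both experiments. The log2 fold change was -0.44 ± 0.43 among HDR libraries and -0.72 ± 0.99 among PE2 libraries, or -0.33 ± 0.47 without *peg/peg* replicate 3.

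*Otop1*, a proton channel of the plasma membrane, kept a near constant ratio to *Ucp1*. The SD of the log2 ratio was 0.322 over the HDR libraries, next to 0.321 for *Cox7a1*, and 0.254 over the 8 PE2 libraries, the smallest of the members there. It was at 29.4, 11.8, 15.8, 35.7 and 62.1 CPM in the HDR wild-type and at 23.6, 14.96, 57.0, 14.0 and 5.27 CPM in the *sg/sg* libraries. Between the highest and the lowest of the 10 HDR libraries *Otop1* itself changed 11.8-fold, whereas its ratio to *Ucp1* changed 1.90-fold. The PE2 wild-type libraries held 40.7, 32.3, 10.3 and 42.5 CPM and the *peg/peg* libraries 7.03, 35.5, 0.0439 and 29.1 CPM of *Otop1*, where 0.0439 CPM stands for 2 counts. Over all 8 PE2 libraries, the ratio of *Otop1* to *Ucp1* stayed within a 1.66-fold range. The genotype differences were -0.43 ± 0.58 and -0.81 ± 1.15 on the log2 scale, or -0.41 ± 0.60 for PE2 without *peg/peg* replicate 3, and the groups overlapped.

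*Cox8b* and *Cox7a1* encode the tissue-specific isoforms of 2 subunits of cytochrome c oxidase, the last complex of the respiratory chain. Brown fat shares these isoforms with heart and skeletal muscle, while *Cox8a* and *Cox7a2* are the widely expressed forms. *Cox8b* was at 89.0, 28.3, 49.2, 114 and 179 CPM in the HDR wild-type and at 53.7, 49.98, 130.0, 45.4 and 26.9 CPM in the *sg/sg* libraries, so that all mutant values but 1 lay within the wild-type range. PE2 wild-type libraries held 253, 245, 82.2 and 206 CPM of *Cox8b* and *peg/peg* libraries 54.3, 191, 1.08 and 171 CPM. Of the *peg/peg* values, those of replicates 2 and 4 lay inside the wild-type range. *Cox7a1* was at 33.6, 13.9, 20.95, 41.4 and 58.0 CPM in the HDR wild-type and at 17.2, 20.3, 48.5, 15.01 and 9.42 CPM in the *sg/sg* libraries. It was at 108, 138, 39.9 and 94.1 CPM in the PE2 wild-type and at 24.6, 94.7, 3.36 and 90.8 CPM in the *peg/peg* libraries. The groups overlapped in both experiments, and Mut_4 was again the highest of the *sg/sg* libraries. The widely expressed forms varied less: *Cox8a* changed 2.87-fold and *Cox7a2* 2.41-fold over the 10 HDR libraries, against 6.66-fold for *Cox8b* and 6.16-fold for *Cox7a1*. Per count, *Cox8b* reached 0.345 to 1.53 times *Cox8a* in the HDR libraries and 0.420 to 1.07 times in the PE2 libraries other than *peg/peg* replicate 3, where the ratio was 0.00648. The log2 fold changes of *Cox8b* were -0.59 ± 0.49 (HDR), -0.91 ± 1.07 (PE2) and -0.51 ± 0.49 (PE2 without *peg/peg* replicate 3). Those of *Cox7a1* were -0.61 ± 0.45, -0.83 ± 0.85 and -0.45 ± 0.52 in the same order.

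Since these isoforms are also muscle genes, marker lists for skeletal and cardiac muscle were read beside them. The 13 skeletal muscle markers summed to 11.8 to 167 CPM in the HDR wild-type, with the highest sum in WT_3, and to 18.9 to 104 CPM in the *sg/sg* libraries. *Cox8b* and *Cox7a1* were the lowest of the wild-type group in WT_3, the library with the highest skeletal sum. The markers behind that sum did not move as one. In the HDR comparison 8 of 12 tested estimates were above 0 and 4 below (-1.99 to 4.29). In the PE2 comparison they were also 8 and 4 (-2.78 to 6.07). Whether muscle RNA adds to these isoforms was not tested. The library labelled *peg/peg* replicate 3 had the highest skeletal sum (1216 CPM, others 20.7 to 46.1) and the highest cardiac sum (1135 CPM, others 60.9 to 219) of the PE2 experiment, and the lowest *Cox8b*, *Cox7a1* and *Cpt1b*. In the HDR comparison (1.98% of all genes at that threshold) 5 of 12 tested skeletal markers were higher at an unadjusted p under 0.05, among them *Myh4* (log2 fold change 4.29 ± 0.84), and in the PE2 comparison (4.3% of all genes) 3 of 12 skeletal and 4 of 9 tested cardiac markers were, with 0 called after adjustment by edgeR in either. DESeq2 called *Myh4* in the HDR comparison (DESeq2 adjusted p = 0.00257). Without *peg/peg* replicate 3 these counts were 0 of 12 skeletal and 6 of 9 cardiac markers, against 4.1% of all genes.

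*Cpt1b*, the muscle and brown fat form of the carnitine palmitoyltransferase that admits fatty acids to mitochondria, was scarce. It gave 16 to 77 counts in the HDR libraries, or 0.851 to 3.62 CPM. Among the PE2 libraries it was at 0.905 to 2.98 CPM in the wild type and at 0.63 to 2.37 CPM in 3 of the *peg/peg* libraries, with 1 count in the library labelled *peg/peg* replicate 3. *Cpt1a*, the widely expressed form, was at 93.9 to 130 CPM in the HDR libraries and changed 1.39-fold, so that *Cpt1b* amounted to 0.00792 to 0.0350 of it per count. The log2 fold change of *Cpt1b* was 0.00 ± 0.44 for HDR and -0.67 ± 0.94 for PE2, or -0.27 ± 0.53 without *peg/peg* replicate 3.

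*Elovl3*, a fatty acid elongase that rises in brown fat in the cold, had the widest fold range of the panel over the HDR libraries (60.2-fold) and over the 7 PE2 libraries without *peg/peg* replicate 3 (36.2-fold). Over all 8 PE2 libraries *Ucp1* (1205-fold) and *Otop1* (967-fold) ranged more widely than *Elovl3* (946-fold). It was at 12.9, 7.42, 9.75, 16.7 and 39.4 CPM in the HDR wild-type libraries and at 15.2, 6.42, 28.3, 0.654 and 1.06 CPM in the *sg/sg* libraries. Mut_5 and Mut_6 held only 14 and 20 counts of it, below every wild-type library, while Mut_2 and Mut_4 lay inside the wild-type range. Per 1000 *Ucp1* counts there were 5.37 *Elovl3* counts in Mut_5 and 12.2 in Mut_6, against 31.4 to 67.3 in the other 8 HDR libraries. PE2 wild-type libraries held 14.5, 34.5, 8.08 and 62.3 CPM and *peg/peg* libraries 1.72, 17.5, 0.0659 and 19.5 CPM of *Elovl3*, where 0.0659 CPM stands for 3 counts. The log2 fold change of *Elovl3* was the most negative of the panel in both comparisons, at -0.75 ± 0.81 (HDR), -1.62 ± 1.24 (PE2, adjusted p = 0.861) and -1.22 ± 0.89 (PE2 without *peg/peg* replicate 3), with an SE of similar size each time. The PE2 wild-type replicate 4, highest in *Elovl3*, was the male of an otherwise female experiment, and without it the PE2 estimate was -0.975 ± 1.34 (-0.97 ± 1.32 with sex as covariate). Its relatives *Elovl1* and *Elovl5* changed 1.54-fold and 2.68-fold over the HDR libraries, and *Elovl6*, a lipogenic elongase, changed 14.9-fold.

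*Dio2*, the deiodinase that makes active thyroid hormone inside brown adipocytes, followed *Ucp1* only in part. It was at 87.7, 45.7, 59.7, 140.2 and 240.4 CPM in the HDR wild-type and at 56.9, 70.5, 118, 99.8 and 112 CPM in the *sg/sg* libraries, with every mutant value inside the wild-type range. PE2 wild-type libraries held 149, 66.1, 41.0 and 67.1 CPM and *peg/peg* libraries 138, 140.1, 2.97 and 88.4 CPM. The library labelled *peg/peg* replicate 3 was lowest in both genes of the PE2 libraries, and WT_3, low in *Ucp1*, had the lowest *Dio2* of the HDR libraries. In 3 other libraries low in *Ucp1*, *Dio2* was higher relative to it: the ratio of *Dio2* to *Ucp1* was 1.28 in Mut_6, 0.819 in Mut_5 and 0.845 in *peg/peg* replicate 1, against 0.133 to 0.377 in the other 8 HDR libraries and 0.0409 to 0.144 in the other 6 PE2 libraries left after *peg/peg* replicate 3. The log2 fold changes were -0.33 ± 0.40 (HDR), 0.19 ± 0.89 (PE2) and 0.59 ± 0.40 (PE2 without *peg/peg* replicate 3). The related deiodinases were hardly seen, with *Dio1* at 0 and *Dio3* at 13 counts in all HDR libraries together.

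*Ppargc1a* and *Prdm16*, the transcriptional regulators of the panel, ranged less than *Ucp1* from library to library in both experiments. *Ppargc1a*, the coactivator that drives mitochondrial biogenesis, was at 23.9, 12.2, 15.04, 26.0 and 22.2 CPM in the HDR wild-type and at 17.5, 19.7, 21.04, 14.3 and 21.3 CPM in the *sg/sg* libraries, a 2.13-fold range over all 10. *Prdm16*, the zinc finger factor of brown fat identity, was at 144, 123, 102, 120.3 and 88.2 CPM in the HDR wild-type and at 134, 129, 105, 119.5 and 109 CPM in the *sg/sg* libraries, a 1.64-fold range, and it was lowest in WT_6, where 6 other members were highest. In the PE2 wild-type libraries *Ppargc1a* was at 10.4, 5.26, 4.41 and 8.53 CPM and *Prdm16* at 70.8, 95.0, 135 and 111 CPM. The *peg/peg* libraries held 5.38, 12.0, 2.46 and 6.75 CPM of *Ppargc1a* and 104, 90.8, 8.90 and 121 CPM of *Prdm16*. The groups overlapped for both genes, and the log2 fold changes stayed near 0: for *Ppargc1a* -0.08 ± 0.21, -0.11 ± 0.48 and 0.16 ± 0.37, and for *Prdm16* 0.05 ± 0.14, -0.34 ± 0.63 and 0.02 ± 0.21, in the HDR, PE2 and reduced PE2 fits. *Mecom*, the nearest relative of *Prdm16*, was at 60.4 to 103 CPM in the HDR libraries.

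Per kilobase of exon, *Ucp1*, *Cox8b*, *Cidea* and *Cox7a1* had the highest medians. Median levels over the 10 HDR libraries were 145 CPM per kilobase for *Ucp1*, 144 for *Cox8b*, 99.1 for *Cidea* and 38.5 for *Cox7a1*. Below these came *Dio2* at 16.1, *Prdm16* at 12.9, *Otop1* at 5.73, *Elovl3* at 5.72, *Ppargc1a* at 3.09 and *Cpt1b* at 0.637 CPM per kilobase. The same order held over the 7 PE2 libraries without *peg/peg* replicate 3, from 594 for *Ucp1* to 0.487 for *Cpt1b*. Neighbours in this order had overlapping ranges, except *Ppargc1a* and *Cpt1b* in the HDR libraries and *Cox7a1* and *Dio2* in those 7 PE2 libraries. *Ucp1* and *Cox8b* could not be ranked, since *Ucp1* was the higher in 3 of 10 HDR and in 5 of 7 PE2 libraries. *Cidea* was above *Cox7a1* in every one of these 17 libraries.

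Most members differed more between libraries than the typical gene did. Taken over both genotypes, the SD of log2(CPM + 1) was 1.07 for *Ucp1* in the 10 HDR libraries and 1.19 in the 7 PE2 libraries, against a median of 0.246 and 0.191 over all genes tested. *Ucp1*, *Cidea*, *Cox8b*, *Cox7a1*, *Elovl3*, *Dio2* and *Otop1* lay at percentile 96.6 of all genes or higher in both experiments. *Prdm16* lay at percentile 37.3 (HDR) and 75.7 (PE2), and *Ppargc1a* at 73.0 and 90.8, where the PE2 values leave out *peg/peg* replicate 3. With that library included, the SD was 3.12 for *Ucp1*, 1.23 for *Prdm16* (percentile 97.5) and 0.621 for *Ppargc1a* (percentile 87.5). The members summed to 418 to 1610 CPM in the HDR libraries. Their sum was 605 to 2571 CPM in the PE2 libraries outside *peg/peg* replicate 3, where it was 23.3 CPM.

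**Figure D2:**
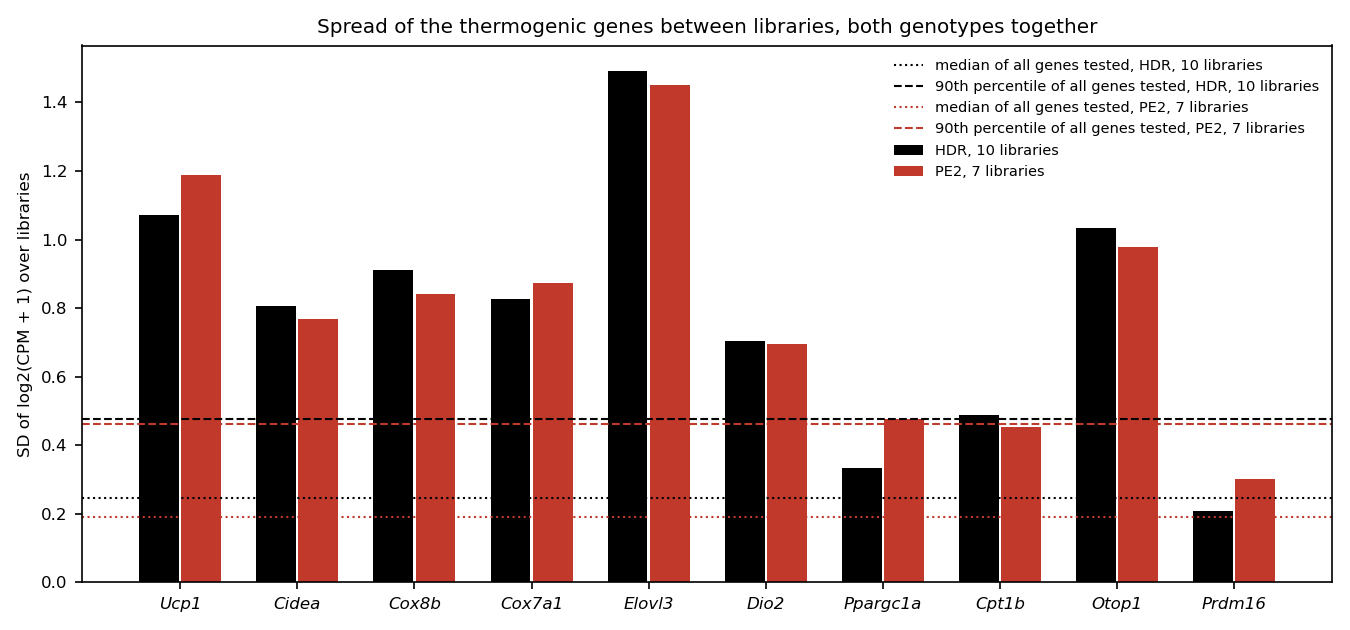
SD of log2(CPM + 1) over libraries of both genotypes (bars), for the 10 HDR libraries and the 7 PE2 libraries without peg/peg replicate 3, with the median and the 90th percentile of all genes tested as lines. The effectors from Ucp1 to Dio2 and Otop1 stand above the 90th percentile in both experiments, and Prdm16 stands below it in both.

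Likeness to *Ucp1* was measured as the Pearson correlation of log2(CPM + 1), once over the 10 HDR and once over the 8 PE2 libraries, and genes were ranked by the smaller of both. The points share library, dissection and genotype, so the values are descriptions. Of 14760 other genes, *Cox7a1* ranked 1 (0.968 HDR, 0.981 PE2), *Otop1* 4, *Cox8b* 10, *Cidea* 11, *Elovl3* 60 and *Cpt1b* 142. *Ppargc1a* ranked 778, *Dio2* 858 and *Prdm16* 7366, the last with -0.34 in the HDR libraries. Without *peg/peg* replicate 3 the PE2 correlation of *Dio2* with *Ucp1* was -0.03 and that of *Prdm16* -0.39, while those of *Cox7a1*, *Cox8b*, *Cidea*, *Elovl3* and *Otop1* were 0.954, 0.970, 0.946, 0.939 and 0.978. The 8 genes outside the panel most like *Ucp1* were *Paqr9*, *Apoc1*, *Letm1*, *Mcrip2*, *Adig*, *Sfxn5*, *Poln* and *Gpd2*. *Gpd2* encodes the mitochondrial glycerol phosphate dehydrogenase, *Letm1* an ion exchanger of the inner mitochondrial membrane and *Adig* an adipocyte protein. Their smaller correlations ran from 0.937 (*Gpd2*) to 0.964 (*Paqr9*).

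General fat content moved with the panel. The 17 adipocyte markers were all detected in every group and summed to 5399 to 32959 CPM in the HDR wild-type (median 13792) and to 4086 to 14093 CPM in the *sg/sg* libraries (median 8141). The sum was 4680 to 14025 CPM in the PE2 wild-type and 5393 to 13682 CPM in the *peg/peg* libraries apart from replicate 3, at 1625 CPM. *Adipoq*, the adiponectin gene of all adipocytes, changed 7.46-fold over the HDR libraries, and *Ucp1* changed 10.2-fold. The ratio of *Ucp1* to *Adipoq* ranged from 1.03 to 4.12 in the HDR libraries and from 1.42 to 8.53 in the 7 PE2 libraries, with 0.101 in the library labelled *peg/peg* replicate 3. Relative to *Adipoq*, the SD of the log2 ratio over the HDR libraries was 0.26 for *Cidea*, 0.30 for *Cox8b* and 0.92 for *Prdm16*. In the PE2 libraries it was 0.99, 1.35 and 0.97 for these 3 genes over all 8 and 0.41, 0.53 and 1.05 without *peg/peg* replicate 3, so that *Cidea* and *Cox8b* lay closer to *Adipoq* than *Prdm16* did in the HDR and the 7 PE2 libraries but not over all 8. When the log2 of the summed markers entered the HDR fit as a covariate, the log2 fold change of *Ucp1* went from -0.29 to 0.30 ± 0.34 and that of *Cox8b* from -0.59 to 0.27 ± 0.15. In the PE2 fit with that covariate over all 8 libraries, *Ucp1* was at -1.16 ± 0.63 and *Elovl3* at -1.46 ± 0.64. *Cidea* went from -0.72 to -0.36, *Cox7a1* from -0.83 to -0.53, *Dio2* from 0.19 to 0.74 and *Ppargc1a* from -0.11 to 0.24, with 0 members called. The covariate fit was not run without *peg/peg* replicate 3, which had the lowest marker sum (1625 CPM).

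**Figure D3:**
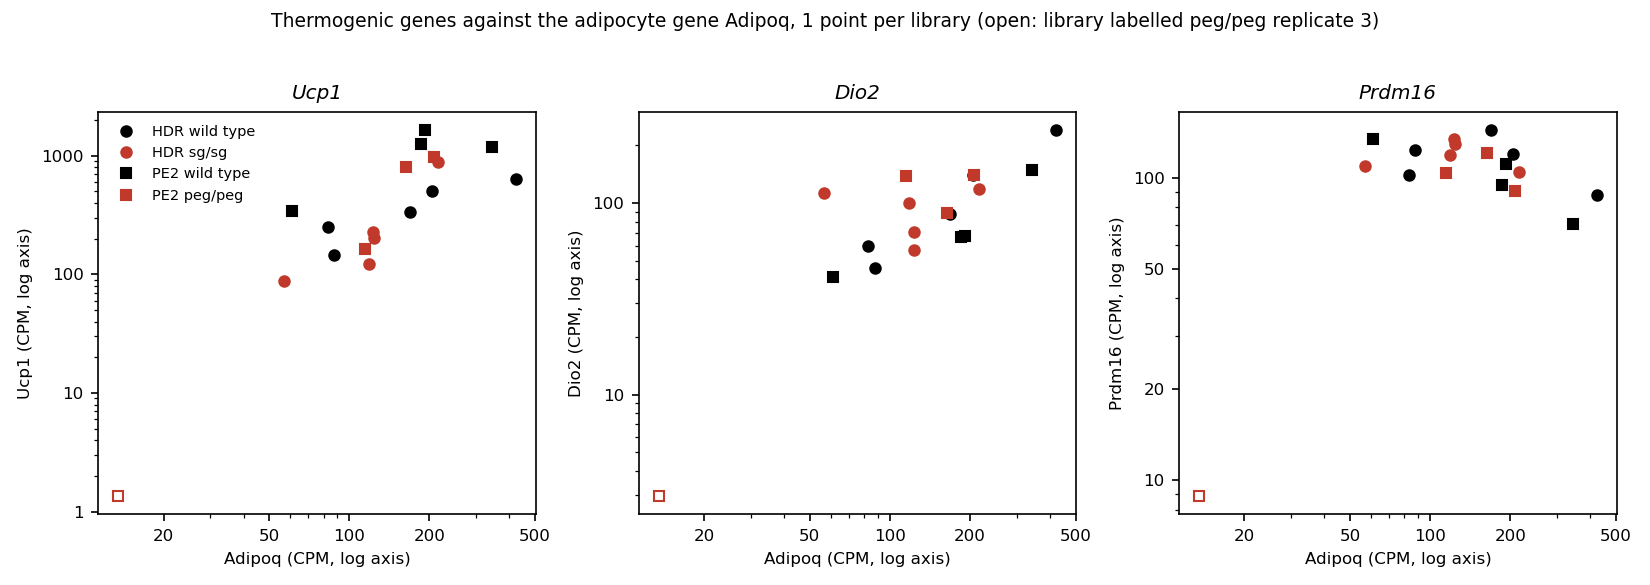
Ucp1, Dio2 and Prdm16 (vertical axes, CPM) against Adipoq (horizontal axes, CPM), both log axes, 1 point per library, circles for HDR and squares for PE2, black for wild type and red for mutant. Among the filled points Ucp1 tends to be higher in libraries with more Adipoq and Prdm16 does not, and the open square (library labelled peg/peg replicate 3) has the least of all 4 genes in its experiment.

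None of the 10 genes passed the genotype test in the HDR comparison. With edgeR's quasi-likelihood test, 0 of 10 had an adjusted p under 0.05, where 0.00609% of the 16423 genes tested did (1 gene, *Tspan2*). Before adjustment, 0 of 10 members had p under 0.05, against 1.98% of all genes. DESeq2 called 0 members (0.00933% of its genes) and had 0 below 0.05 before adjustment (1.6%), and limma-voom likewise gave 0 and 0. The estimates were below 0 for 8 of 10 members, with a median of -0.38 against 0.00 over all genes. Leaving out WT_3 called 0 and gave estimates from -0.94 for *Elovl3* to 0.07 for *Prdm16*, with *Ucp1* at -0.50. Leaving out Mut_4, highest of its group for *Ucp1*, moved *Ucp1*, *Cox7a1*, *Cox8b*, *Elovl3*, *Otop1*, *Cidea* and *Cpt1b* more than leaving out any other library, whereas *Dio2* moved most without WT_6 (to 0.13), *Ppargc1a* without WT_3 (to -0.22) and *Prdm16* without WT_2 (to 0.14). Without Mut_4 the estimates were -1.23 ± 0.42 for *Ucp1* (unadjusted p = 0.0146), -1.12 ± 0.38 for *Cox7a1* (unadjusted p = 0.0141) and -1.06 ± 0.45 for *Cox8b* (unadjusted p = 0.0397), with an edgeR adjusted p of 1.00 for each. Leaving out WT_6, highest of its group, brought *Ucp1* to -0.02.

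The PE2 comparison also called 0 of 10 by edgeR, where 0.0061% of 16401 genes were called (1 gene, *Tspan2*), and 0 of 10 at an unadjusted p under 0.05, against 4.3% of all genes. DESeq2, which called 0.189% of its genes and had 5.43% below 0.05 before adjustment, and limma-voom each gave 0 members by either measure. Adjusted p ran from 0.861 to 0.964 over the members, and 9 of 10 estimates were below 0, with a median of -0.77 against 0.01 over all genes. Without *peg/peg* replicate 3, edgeR called 0 of 10 (0.012% of all genes) and had 0 at an unadjusted p under 0.05 (4.1%), 7 of 10 estimates were below 0, and the median was -0.37. The difference between the HDR and the PE2 change was tested as a contrast over all 18 libraries and called 0 of 10, as it called 0% of 18094 genes. At an unadjusted p under 0.05 it gave 0 of 10 members and 5.13% of all genes, and without *peg/peg* replicate 3 also 0 members against 3.28%.

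**Figure D4:**
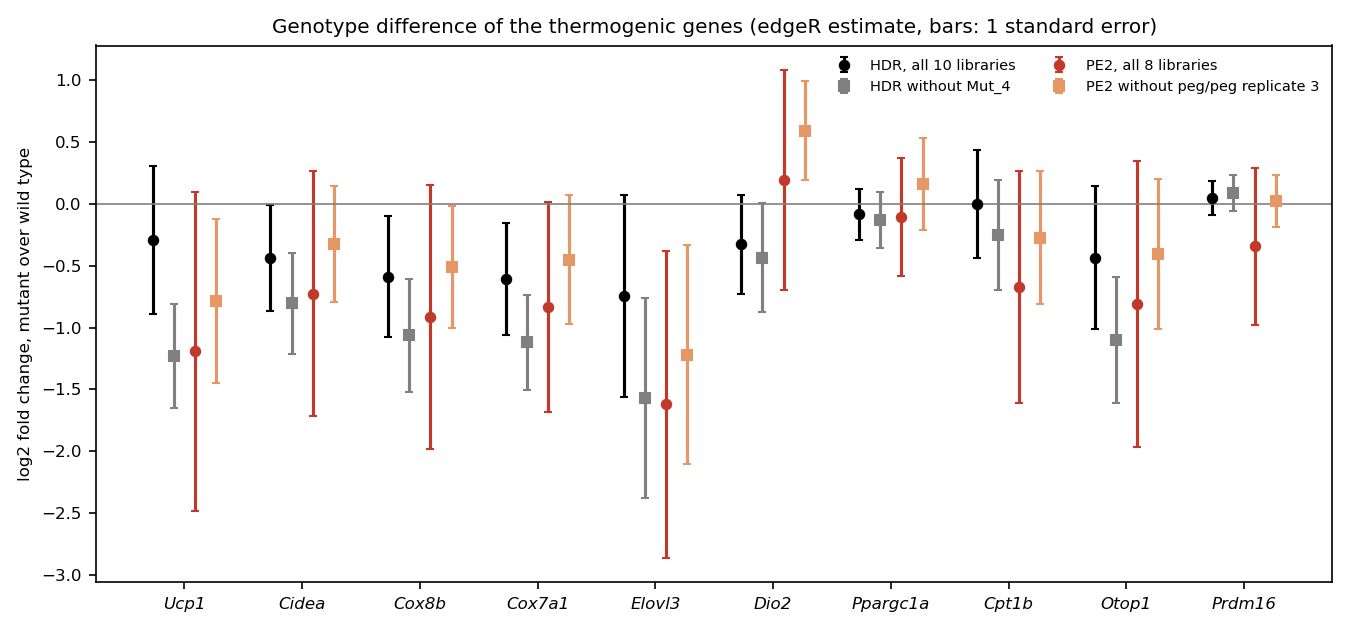
edgeR log2 fold change, mutant over wild type, of each of the 10 genes with its standard error, in the HDR fit, the HDR fit without Mut_4, the PE2 fit and the PE2 fit without peg/peg replicate 3. Most estimates lie below 0 and none has an adjusted p under 0.05; the 2 reduced fits show how far 1 library moves each estimate.

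The rest of the brown fat programme was read from companion lists. Genes of a list, like the members, share libraries, so counts of estimates below 0 are not counts of independent observations. Of 24 other genes enriched in brown fat, 23 were tested in each comparison and 0 were called. In the HDR comparison 11 estimates were above and 12 below 0, whereas in the PE2 comparison 23 of 23 were below 0, or 22 of 23 without *peg/peg* replicate 3, with a median of -0.57 or -0.33. Among them 1 of 23 was lower at an unadjusted p under 0.05 in the PE2 comparison, against 4.3% of all genes. This was *Acot2*, a mitochondrial thioesterase, at -0.50 ± 0.21 (unadjusted p = 0.0485 by edgeR's fit over all genes). Without *peg/peg* replicate 3, 2 of 23 were lower at that threshold, against 4.1% of all genes. *Adrb3*, the beta-3 adrenergic receptor of adipocytes, was at -0.87 ± 0.53 in the HDR comparison, where 0 of 23 were below 0.05. Of 20 genes for fatty acid uptake and oxidation, 20 were tested and 0 were called, with 19 estimates below 0 in the HDR and 20 in the PE2 comparison (medians -0.20 and -0.48, or -0.24 without *peg/peg* replicate 3). Of 14 genes for beta-adrenergic signalling and lipolysis 0 were called, with 11 and 12 below 0. The 20 transcription factors and cofactors of brown fat lay near 0, with medians of -0.04 and -0.08, 0 called, and an HDR range from -0.48 (*Cebpa*) to 0.31 (*Klf11*). Of the 13 genes of thermogenic cycles that do not use *Ucp1*, 10 were tested in the HDR comparison with 0 called by edgeR. At an unadjusted p under 0.05, 2 of the 10 were higher, against 1.98% of all genes. These were *Atp2a1* (2.80 ± 0.57) and *Ryr1* (1.73 ± 0.40), the calcium pump and release channel of skeletal muscle, beside the skeletal markers described above. DESeq2 called *Atp2a1* (DESeq2 adjusted p = 0.00257). Of 10 position markers of brown and beige fat, 8 were tested and 0 were called, with 3 estimates below 0 in the HDR and 7 in the PE2 comparison, or 8 of 8 without *peg/peg* replicate 3. Their sum was 49.7 to 59.0 CPM in the PE2 wild-type and 22.1 to 47.3 CPM in the *peg/peg* libraries (34.6 to 47.3 CPM without replicate 3). These ranges did not overlap, whereas the PE2 sums of the other companion lists did. Of single genes tested, 1.1% had every *peg/peg* library below every wild-type library, or 2.49% without replicate 3. These shares are of single genes and give no background for a list sum singled out among several. In the HDR libraries the position markers summed to 29.8 to 43.6 against 26.4 to 49.3 CPM, with overlap. *Tbx15*, a T-box factor of adipocyte precursors, had the smallest p of that list in both comparisons, at 0.43 ± 0.26 (HDR), -1.76 ± 0.85 (PE2) and -1.37 ± 0.49 (PE2 without *peg/peg* replicate 3). Lymphocyte markers summed to 6.31 to 22.9 CPM in the PE2 wild-type and 5.70 to 15.6 CPM in the *peg/peg* libraries. In that comparison 3 of 11 were lower at an unadjusted p under 0.05, against 4.3% of all genes, and 0 were called by edgeR. DESeq2 called *Rag1*, a gene of developing lymphocytes, as lower (-4.12 ± 1.02, DESeq2 adjusted p = 0.0336). Of the 17 adipocyte markers 4 were lower in the HDR comparison at an unadjusted p under 0.05, against 1.98% of all genes, and 0 were called. Among the 4 were *Lep* (-1.36 ± 0.56) and *Fasn* (-1.28 ± 0.50).

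Levels in wild-type aorta differed between the experiments, where age, strain, depth and preparation cannot be told apart. Over the 9 wild-type libraries, edgeR called 3 of 10 members, while it called 59.7% of the 16930 genes tested. *Ucp1* was higher in the PE2 wild type, at 1101 ± 547 CPM (SD, n = 4) against 374 ± 197 CPM (SD, n = 5), with an edgeR adjusted p of 0.0143. *Cox7a1* was higher too, at 95.1 ± 41.2 against 33.6 ± 17.4 CPM (edgeR adjusted p = 0.00889). *Ppargc1a* was lower, at 7.16 ± 2.81 against 19.9 ± 5.95 CPM (edgeR adjusted p = 0.00129). Before adjustment edgeR had 4 members below 0.05 (64% of all genes). With DESeq2 the count was 3 both after adjustment (47.5% of its genes) and before it (52.5%). Without WT_6, or without PE2 wild-type replicate 3, edgeR called 5.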

How the data were processed

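The authors trimmed reads, aligned them with STAR 2.7.0f to GRCm38 and counted them per gene with featureCounts of Subread 1.6.4 (versions per the labels), and deposited a table of raw counts for each experiment. A second deposited table per experiment holds a normalized signal (the counts after division by size factors from DESeq2) and served here only as a check. The strand setting is not given in the sources used here, and labels and methods differ on library kit and read length. HDR columns name a genotype but not a single labelled sample, so sex could not be entered there.

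From the counts, edgeR 4.0.16 in R 4.3.3 (TMM, filterByExpr, glmQLFit, glmQLFTest) was run on all genes of each experiment alone, with Benjamini-Hochberg adjusted p under 0.05 as threshold. After filtering, 16423 genes remained for HDR and 16401 for PE2. DESeq2 1.42.0, limma 3.58.1 (voom), other filters and scalings, covariates and each library left out in turn were alternatives, and the fits were tested on simulated data. The comparison of wild types, and the fits by DESeq2 and voom without *peg/peg* replicate 3, were added after the data had been seen. P-values set a difference between groups against the spread between these libraries, which each tool estimated with information shared over genes. Exon lengths came from Gencode M21, whereas the study counted on M22. Correlations and SDs used log2(CPM + 1). Columns of per-sample values left unused numbered 0. The named genes were the 10 members, their closest relatives, *Tspan2* and the 8 genes most like *Ucp1*. From several companion lists, some of the 3 genes with the smallest p in a comparison were also named, not always the smallest. Genes outside this rule, such as *Eln*, *Hoxa13*, *Adipoq* and the ends of a list's range, were chosen after their values were seen. The members and lists were chosen with earlier results of these data known.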

Additional observations from a re-analysis of the deposited data

Results flagged for a closer look

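Within groups of 4 or 5 libraries, a value was set apart when its gap to the nearest library, divided by the range of the group, exceeded Dixon's 95% critical value. Of 40 groups (10 genes in 4 groups), 5 were set apart. Chance would give about 2 for normally distributed values, but the CPM here were not transformed, so that number is only a guide. Groups that share libraries are not independent. *Ucp1* was far above the other *sg/sg* libraries in Mut_4 (889 CPM, others 87.4 to 225), and so were *Cox8b* (130.0 CPM, others 26.9 to 53.7) and *Cox7a1* (48.5 CPM, others 9.42 to 20.3) in the same library. The adipocyte markers summed to 14093 CPM in Mut_4, the highest of its group. *Elovl3* was far above the other HDR wild-type libraries in WT_6 (39.4 CPM, others 7.42 to 16.7), where the adipocyte markers summed to 32959 CPM, the highest of all libraries. *Cidea* was far below the other PE2 wild-type libraries in replicate 3 (97.2 CPM, others 304.8 to 336), whose adipocyte markers summed to 4680 CPM, the lowest of its group. What these libraries have in common beyond these values was not tested.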

How the results depend on the processing

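The count of members called stayed at 0 in the HDR, the PE2 and the difference comparison under each alternative run. The lowest adjusted p of any member over those fits was 0.669, 0.599 and 0.799. Several PE2 fits called 0 genes at all, so that *Tspan2* was missed too. This held when edgeR blocked on replicate, adjusted for sex or used females only. It also held when any library except the replicate 3 of either genotype was dropped. The main difference contrast called 0 of 18094 genes. An unchanged 0 in such fits cannot show that the result is stable. Signs did change, with the adipocyte covariate for 8 of the 10 HDR estimates. In the HDR comparison *Cpt1b* went from 0.00 to -0.0575 with limma-voom and -0.0263 without a filter. With the adipocyte markers as covariate, *Ucp1* was at 0.30, *Cidea* at 0.24, *Cox8b* at 0.27, *Cox7a1* at 0.0494, *Dio2* at 0.41, *Ppargc1a* at 0.13, *Otop1* at 0.33 and *Prdm16* at -0.011. In the PE2 comparison *Dio2* was at -0.61 with limma-voom and *Ppargc1a* at 0.24 with that covariate. Sizes changed as well with limma-voom over all 8 PE2 libraries. It gave -2.98 ± 2.43 for *Ucp1* (edgeR -1.19), -3.23 ± 1.61 for *Elovl3* (-1.62) and -2.80 ± 1.65 for *Otop1* (-0.81). *Cox8b* was at -2.31 and *Cidea* at -1.76 there. In the HDR comparison limma-voom gave -1.72 ± 0.86 for *Elovl3* (edgeR -0.75), but -0.51 for *Cox8b* (-0.59) and -0.12 for *Dio2* (-0.33). Without *peg/peg* replicate 3, DESeq2 gave 0.17 for *Ppargc1a* and 0.034 for *Prdm16*, and limma-voom 0.17 and 0.057. Between wild types, *Otop1* went from 0.02 to -0.0549 with DESeq2 size factors, -0.0426 with DESeq2 and -0.0653 with at least 10 counts in every library. The cause was not tested.

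Leaving out 1 library at a time gave ranges that crossed 0 for *Cpt1b* (-0.25 to 0.21), *Ppargc1a* (-0.22 to 0.0297), *Dio2* (-0.54 to 0.13) and *Prdm16* (-0.038 to 0.14) in the HDR comparison. In the PE2 comparison they did so for *Ppargc1a* (-0.56 to 0.16), *Dio2* (-0.0829 to 0.66) and *Prdm16* (-0.61 to 0.0237). For the difference between both changes they were -0.0273 to 1.47 (*Ucp1*), -0.12 to 0.74 (*Cidea*), -0.13 to 0.79 (*Cox8b*), -0.27 to 0.66 (*Cox7a1*), -0.28 to 0.94 (*Otop1*) and -0.24 to 0.47 (*Ppargc1a*). Between wild types *Otop1* ran from -0.20 to 0.35, and 3 to 5 members were called, with 5 without WT_6 or without PE2 wild-type replicate 3.

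PE2 samples with the same number did not deviate together (correlations -0.061, -0.163, -0.023 and -0.226). With the replicate block 0 members were called, *Dio2* was at -0.37, *Ucp1* at -2.47 and *Elovl3* had an unadjusted p of 0.033 in edgeR's fit over all genes, while calls over all genes went from 1 to 0. No paired analysis was possible in the HDR comparison because its columns carry no number tied to a sample. DESeq2 called 4 genes in the HDR and 33 in the PE2 comparison, or 100 without *peg/peg* replicate 3, against 1, 1 and 2 with edgeR. A minimum of 10 counts in every library left *Cpt1b*, *Elovl3* and *Otop1* without a PE2 value. Low counts limit *Cpt1b* in every library.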
